A study of Mus musculus with 8 samples.

Results

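Most SLC25 genes encode carriers of the inner mitochondrial membrane. The family was followed here in phagocytes sorted from GL261 gliomas of mice with and without B cells, under CTLA-4 blockade or an isotype antibody. Members were taken by name, as every gene row whose symbol is Slc25a followed by a number. There were 47 of them among 50763 gene rows. Of these 45 had at least 1 read, 42 passed the filter on low counts and were tested among 16608 genes, and 5 were not tested.

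The host mice were C57BL/6 wild-type (WT) mice or muMT mice, which lack B cells. All of them carried an intracranial GL261 tumour, a mouse glioma line made to express mCherry and EGFP, and were given either isotype IgG or an antibody that blocks CTLA-4, a receptor through which T cells are restrained. On day 23 live cells positive for mCherry and for the leukocyte antigen CD45.2 were sorted from the brain. Each of the 4 groups (each host with each antibody) had 2 libraries. The mCherry gate keeps leukocytes that hold tumour material, so reads of RNA taken up with it are counted with the phagocyte's own. Whether the 2 libraries of a group stand for different animals, pools or repeats is not given in the sources used here, so p-values speak only for the spread among these libraries, which may be technical.

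A carrier of this family is a small nuclear-encoded protein made of repeated modules. Most of them move a given set of substrates across the inner membrane, usually as an exchange. Together they bring in ADP, phosphate, amino acids, cofactors and iron, and pass out ATP, citrate and aspartate. In macrophages they sit between the citric acid cycle and the synthesis of fatty acids, arginine products and haem, which change with the activation state of the cell.

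Reads in genes ranged from 24784639 to 31289104 per library, and the Slc25a rows took 0.181% to 0.209% of them as group means. The 8 macrophage markers summed to 5032 to 5555 CPM (counts per fixed number of reads in genes, scaled between libraries by TMM) in every library, and the defining B cell gene Ighm had 0 reads in all 8. Reads outside genes were 20.6% ± 0.258 (SD, n = 2) of the placed reads under isotype and 18.6% ± 0.0606 under anti-CTLA-4 in muMT, and 29.0% ± 0.804 under isotype and 33.2% ± 0.202 under anti-CTLA-4 in WT, so this share moved with both host and antibody, and its part in the results was not tested. In bulk samples such as these, fewer cells of a type and less RNA per cell cannot be told apart.

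The comparisons ask what CTLA-4 blockade did to carrier expression in tumour-laden phagocytes of hosts with and without B cells. Under anti-CTLA-4 the family had no common direction. In WT mice 13 of the 42 tested members passed an adjusted p of 0.05 (edgeR quasi-likelihood test, Benjamini-Hochberg), 4 higher and 9 lower, against 30.5% of all tested genes (14.7% higher and 15.9% lower). In muMT mice 19 passed, 13 higher and 6 lower, against 42.5% of all genes (22.1% higher and 20.4% lower). The difference of the effects, WT minus muMT, passed for 14 members, 3 positive and 11 negative, against 37.3% of all genes (17.5% positive and 19.8% negative). The members called in all, 31%, 45.2% and 33.3%, lay near the shares of all genes, so the number of calls is no result about the carriers. The split by direction was less near for the difference, with 3 of 42 positive against 17.5% of all genes and 11 of 42 negative against 19.8%. With upper-quartile scaling it was 4 positive and 9 negative. The members share the same libraries, so this split is a description and no result about the family. The results that follow are those of single members. The WT count was 7 by the Wald test of DESeq2 and 8 without WT anti-CTLA-4 replicate 1, and the muMT count was 12 without muMT anti-CTLA-4 replicate 1.

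The median log2 fold change of the members was -0.08 in WT and 0.02 in muMT, against -0.01 and -0.00 over all tested genes. With upper-quartile scaling the muMT median became -0.05, with 10 members higher and 10 lower, and with scaling by total reads it became -0.03, with 10 higher and 7 lower. Single libraries moved both medians. The WT median was -0.01 without WT isotype replicate 1 and -0.12 without replicate 2 of either WT group, and the muMT median was -0.04 and 0.09 without replicate 1 and replicate 2 of muMT anti-CTLA-4 and 0.07 without muMT isotype replicate 2. The same upper-quartile scaling moved the median of all genes in muMT to -0.08, and the share of all muMT calls that were higher from 52.1% to 39.1%. For the difference it moved the share that were positive from 46.8% to 58.3%. Calls of at least 1.5-fold were few: 3 members in WT, 4 in muMT and 4 for the difference, against 10.5%, 15.5% and 17.7% of all genes.

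In both hosts 8 members passed, which is 61.5% of the 13 WT calls and 42.1% of the 19 muMT calls. The matching shares over all genes were not computed, and 30.5% of all genes passed in WT and 42.5% in muMT. Neither this overlap nor its split by direction is therefore a result about the carriers. Of these, 3 went the same way, since Slc25a24 and Slc25a37 rose and Slc25a30 fell in both hosts. The other 5 went opposite ways. Slc25a5, Slc25a11 and Slc25a39 fell in WT and rose in muMT, and Slc25a28 and Slc25a33 rose in WT and fell in muMT. Across the 42 members the effects in the hosts had a Pearson r of 0.335 and a Spearman rho of 0.236, given as a description across genes that share the same libraries.

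**Figure D1:**
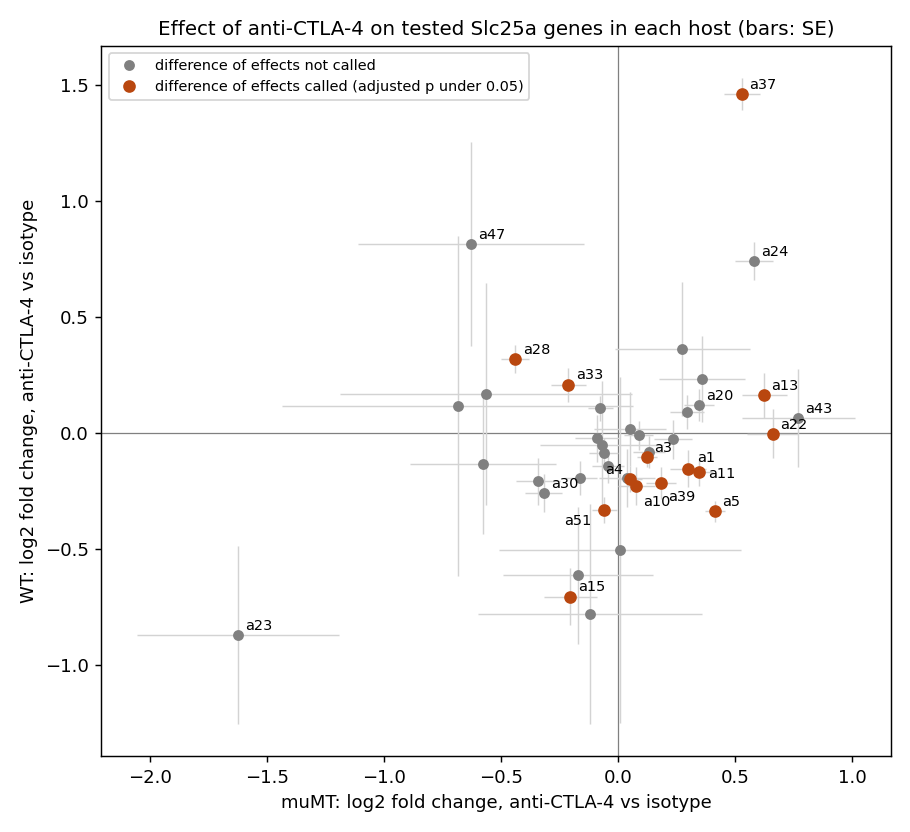
Log2 fold change of anti-CTLA-4 against isotype in muMT (x axis) and WT (y axis) for the tested Slc25a genes reported here, 1 point each with SE bars, the main ones named by the end of the symbol. The 14 members whose effects differed between hosts are in orange, with Slc25a37 farthest up and Slc25a28 and Slc25a33 at the upper left.

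Because the ADP/ATP carrier Slc25a5 moved in opposite directions to the iron carrier Slc25a28 and the pyrimidine carrier Slc25a33, windows of these 3 genes are shown. The windows run from 250 bases before to 50 bases after a RefSeq start in GRCm38.p6, which is not the build of the counts (mm39). They are Slc25a5 at chrX:36795347-36795646 (plus strand), Slc25a28 at chr19:43674832-43675131 (minus strand) and Slc25a33 at chr4:149774218-149774517 (minus strand), each read 5′ to 3′ along its gene. For Slc25a28 that start lies inside the gene span given below (chr19:43663801-43675006), so more than 50 bases of its window fall within the span. Capitals mark the GC box, spelled GGGCGG, the box named by its letters CCAAT and the E-box, spelled CACGTG, each searched on both strands, and motifs may overlap.

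Slc25a5: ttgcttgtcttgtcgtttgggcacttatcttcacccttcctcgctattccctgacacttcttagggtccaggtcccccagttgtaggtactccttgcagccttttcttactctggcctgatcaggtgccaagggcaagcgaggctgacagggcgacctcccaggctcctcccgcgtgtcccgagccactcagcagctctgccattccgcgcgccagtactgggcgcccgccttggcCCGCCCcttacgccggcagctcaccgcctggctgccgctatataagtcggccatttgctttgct

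Slc25a28: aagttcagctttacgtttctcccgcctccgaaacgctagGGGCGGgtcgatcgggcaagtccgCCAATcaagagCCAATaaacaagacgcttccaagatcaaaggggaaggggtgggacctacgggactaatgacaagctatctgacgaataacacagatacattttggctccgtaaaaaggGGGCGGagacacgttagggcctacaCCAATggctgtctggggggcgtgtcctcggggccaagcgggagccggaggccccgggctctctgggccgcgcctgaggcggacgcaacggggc

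Slc25a33: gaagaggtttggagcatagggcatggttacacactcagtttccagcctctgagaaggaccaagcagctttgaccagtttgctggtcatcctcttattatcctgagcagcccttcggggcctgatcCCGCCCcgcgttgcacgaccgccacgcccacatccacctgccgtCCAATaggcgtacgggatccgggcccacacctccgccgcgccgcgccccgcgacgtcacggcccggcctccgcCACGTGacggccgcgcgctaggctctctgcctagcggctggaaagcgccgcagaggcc

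The window of Slc25a5 held 1 GC box, 0 CCAAT boxes and 0 E-boxes. That of Slc25a28 held 2 GC boxes and 3 CCAAT boxes, and that of Slc25a33 held 1 of each of the 3 motifs. Windows were matched by symbol for 32 of the 42 tested members. Of these 29 held a GC box, 18 a CCAAT box and 7 an E-box, against 35.7%, 37.4% and 7.15% of all 32851 windows. The measures are unlike, since a member counts if any of its windows matches and had to pass the filter on low counts. Of the members that moved as Slc25a5 did, Slc25a11 held a CCAAT box and Slc25a39 did not. None of these 3 windows held the ETS motif CCGGAAG (6 of 32 members, 8.86% of all windows), the CRE motif TGACGTCA (2, 1.79%), the GAS motif TTCNNNGAA (1, 8.30%), or the ISRE-like (2, 3.44%), NRF1 (0, 0.971%) or kappaB (0, 0.155%) motif. These are matches of letters in a fixed window and say nothing of binding.

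Levels between genes are compared per kilobase of merged exons (GENCODE M21 lengths, an approximation since the annotation behind the counts is not given in the sources used here). Slc25a5, one of the ADP/ATP carriers, stood first at 383 ± 81.1 CPM per kb (SD over 8 libraries), and Slc25a3, which brings phosphate into the matrix, second at 194 ± 11.2. They did not overlap, since the lowest library of Slc25a5 was 288 and the highest of Slc25a3 was 210.4. Together they held 39.4% to 47.8% of all reads on the family.

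The next were Slc25a4, another ADP/ATP carrier, at 52.7 ± 6.63 CPM per kb, the oxoglutarate/malate carrier Slc25a11 at 44.0 ± 4.67, the iron carrier Slc25a28 at 39.8 ± 6.19 and the glutathione carrier Slc25a39 at 30.4 ± 5.44. Neighbours in this order overlapped over the libraries, and Slc25a39 overlapped the next, Slc25a20. Another 23 members lay between 22.8 (Slc25a20) and 2.88 (Slc25a15), and 13 lay below that, down to 0.122 ± 0.0642 for Slc25a31, the ADP/ATP carrier known from testis. Slc25a37 had the widest range for its level among the 29 most abundant members, from 4.16 to 17.7.

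**Figure D2:**
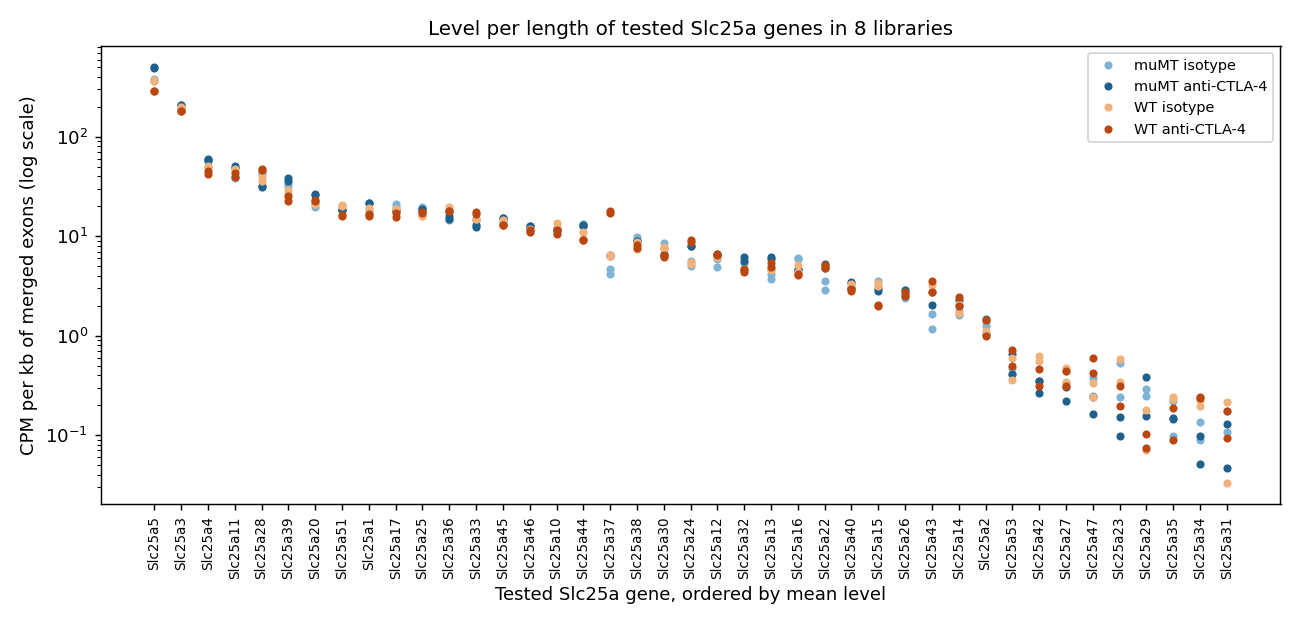
CPM per kb of merged exons on a log axis for the tested Slc25a genes reported here, ordered by mean, with 1 point for each of the 8 libraries coloured by group. Slc25a5 and Slc25a3 lie apart at the upper left (means 383 and 194), and the WT anti-CTLA-4 points of Slc25a37 stand away from its other libraries.

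The iron carriers include the member with the largest fold change in WT, Slc25a37. Slc25a37 and Slc25a28, known as mitoferrin-1 and mitoferrin-2, bring iron into the matrix for haem and iron-sulphur clusters, and mitoferrin-1 is best known from red cell precursors. In muMT mice Slc25a37 (chr14:69241848-69285544 in GRCm38.p6) stood at 19.6 and 17.3 CPM under isotype and at 27.1 and 26.1 CPM under anti-CTLA-4. In WT mice it stood at 26.2 and 27 CPM under isotype and at 72.3 and 74.0 CPM under anti-CTLA-4. The WT anti-CTLA-4 libraries were far above all others, the muMT isotype libraries were lowest, and the muMT anti-CTLA-4 libraries lay at the level of WT isotype.

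Slc25a37 rose 2.75-fold in WT (log2 fold change 1.46 ± 0.07 SE, adjusted p 7.37e-17) and 1.44-fold in muMT (0.53 ± 0.08, adjusted p 1.47e-06). The rise was larger in WT by 0.93 ± 0.10 on the log2 scale (adjusted p 1.91e-08). Between hosts it was higher in WT under isotype (0.53 ± 0.08, adjusted p 2.08e-06) and under anti-CTLA-4 (1.46 ± 0.07, adjusted p 3.66e-17). All 5 calls held in every alternative run.

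Slc25a28 (chr19:43663801-43675006) went opposite ways in the hosts. Its muMT libraries stood at 64.4 and 67.8 CPM under isotype and at 48.2 and 49.4 CPM under anti-CTLA-4. In WT the values were 59.9 and 55.7 CPM under isotype and 70.8 and 73.2 CPM under anti-CTLA-4. No pair of groups overlapped, with WT anti-CTLA-4 highest and muMT anti-CTLA-4 lowest.

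Its log2 fold change was 0.32 ± 0.06 in WT (adjusted p 8.43e-05) and -0.44 ± 0.06 in muMT (adjusted p 4.64e-07), a difference of 0.76 ± 0.08 (adjusted p 1.91e-08). Under isotype it was lower in WT (-0.19 ± 0.06, adjusted p 0.00946), a call that fell away without replicate 2 of WT isotype (-0.14, adjusted p 0.131). Under anti-CTLA-4 it was higher in WT (0.56 ± 0.06, adjusted p 2.64e-09). Per length, reads of Slc25a37 over those of Slc25a28 came to a mean of 0.103 under isotype and 0.201 under anti-CTLA-4 in muMT, and 0.170 under isotype and 0.374 under anti-CTLA-4 in WT, so Slc25a28 stayed the more abundant mitoferrin in every group.

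Markers of other cells are given beside Slc25a37. The 10 erythroid markers summed to 1.52 to 1.99 CPM under isotype and 1.57 to 1.78 under anti-CTLA-4 in muMT, and 4.28 to 4.38 under isotype and 3.48 to 4.45 under anti-CTLA-4 in WT, with Ahsp at 0 reads in all but muMT anti-CTLA-4 and Slc4a1 at 0 in WT anti-CTLA-4. These sums were higher in WT than in muMT, and those of WT anti-CTLA-4 overlapped those of WT isotype. Neutrophil markers (10 genes) summed to 22.6 to 22.9 CPM under isotype in WT and 5.33 to 6.58 CPM in the WT anti-CTLA-4 libraries, where Ly6g had 0 reads, and to 20.7 to 21.2 in the muMT libraries. Monocyte-derived markers (8 genes) summed to 6821 to 7103 CPM under isotype and 11159 to 11278 under anti-CTLA-4 in muMT. In WT they summed to 5764 to 5797 under isotype and 9994 to 10264 under anti-CTLA-4. The sums were higher with anti-CTLA-4 in both hosts, as Slc25a37 was, but the single markers did not rise together. In WT 3 of the 8 were higher and 2 lower (median log2 fold change -0.03). In muMT 5 were higher and 2 lower (median 0.73). Their part in the change of Slc25a37 was not tested.

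Mast cell markers (7 genes) summed to 20.3 to 22.0 CPM under isotype and 7.26 to 7.59 under anti-CTLA-4 in muMT, and 13.9 to 15 under isotype and 23.8 to 25.4 under anti-CTLA-4 in WT. Of the 6 tested, 6 were higher and 0 lower with anti-CTLA-4 in WT (median 0.94), and 0 higher and 6 lower in muMT (median -1.82). These sums had the group order of Slc25a28, and the highest and lowest groups of Slc25a33, and their part in the changes of both carriers was not tested.

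The glutathione carriers Slc25a39 and Slc25a40 belong to the same matrix redox and iron economy. Slc25a39 stood at 54.1 and 56.2 CPM under isotype and 60.8 and 64.3 under anti-CTLA-4 in muMT, and 49.1 and 44.8 under isotype and 38.1 and 42.6 under anti-CTLA-4 in WT. The hosts did not overlap, with every muMT library above every WT library. It fell in WT (-0.22 ± 0.07, adjusted p 0.0151) and rose in muMT (0.18 ± 0.06, adjusted p 0.0222), and the difference was -0.40 ± 0.09 (adjusted p 0.00107).

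Both calls of Slc25a39 within a host were lost by the Wald test of DESeq2 (adjusted p 0.0528 in WT and 0.0633 in muMT), and both depended on single libraries. That in WT fell away without replicate 1 of WT isotype (-0.15, adjusted p 0.201) or of WT anti-CTLA-4 (-0.14, adjusted p 0.277), and that in muMT without muMT isotype replicate 1 (0.17, adjusted p 0.0557) or muMT anti-CTLA-4 replicate 2 (0.15, adjusted p 0.183), and with upper-quartile (adjusted p 0.195) or total-read scaling (adjusted p 0.103). Between hosts it was lower in WT under isotype (-0.23 ± 0.07, adjusted p 0.0056, and 0.109 without WT isotype replicate 2) and under anti-CTLA-4 (-0.63 ± 0.07, adjusted p 2.33e-09). Slc25a40 passed in none of the 5 comparisons, with log2 fold changes from -0.23 to 0.05.

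Genes around these carriers were counted from lists of textbook membership. Each count of a list is to be read beside the shares of all tested genes. These were 14.7% higher and 15.9% lower in WT, and 22.1% and 20.4% in muMT. For the difference they were 17.5% positive and 19.8% negative. Between hosts they were 19.9% and 19.2% under isotype, and 27.4% and 28.7% under anti-CTLA-4. Of 10 tested haem synthesis genes 2 were higher and 4 lower in WT (median -0.13) and 5 higher and 1 lower in muMT (median 0.24). In muMT the largest named change was in Alas1, the rate-limiting enzyme of haem synthesis (0.95 ± 0.05, adjusted p 9.18e-17), and in WT Tmem14c, a porphyrinogen transporter, fell by 0.34 (SE 0.05, adjusted p 3.09e-06). The difference of effects passed for 0 positive and 4 negative members (median -0.30), and between hosts 1 was higher and 2 lower in WT under isotype (median 0.09, or 3 and 2 with total-read scaling) and 0 and 6 under anti-CTLA-4 (median -0.25).

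Of 15 tested genes of iron-sulphur cluster assembly 0 were higher and 1 lower in WT (median -0.09), and 4 were higher and 2 lower in muMT (median 0.08), where the cochaperone Hscb fell (-0.60 ± 0.11, adjusted p 2.52e-05) and Hspa9 rose (0.26 ± 0.05, adjusted p 2.69e-05). With upper-quartile scaling the muMT counts were 3 and 3 (median 0.01), and with total-read scaling also 3 and 3 (median 0.03). The difference passed for 1 positive and 5 negative members (median -0.23, or 1 and 2 with upper-quartile scaling), and between hosts for 1 and 4 under isotype (median -0.12) and 0 and 9 under anti-CTLA-4 (median -0.26). The 11 glutathione genes split, with 3 higher and 3 lower in WT (median -0.01, or 0.01 with the size factors of DESeq2) and 6 higher and 1 lower in muMT (median 0.16). Gclm and Gclc, the subunits of the enzyme that starts glutathione synthesis, rose in WT by 1.01 ± 0.08 (adjusted p 3.86e-12) and 0.58 ± 0.06 (adjusted p 2.37e-09). For glutathione the difference passed for 3 positive and 3 negative members (median -0.16, or 3 and 2 with each other scaling), and between hosts for 1 and 4 under isotype (median -0.13) and 2 and 6 under anti-CTLA-4 (median -0.41).

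**Figure D3:**
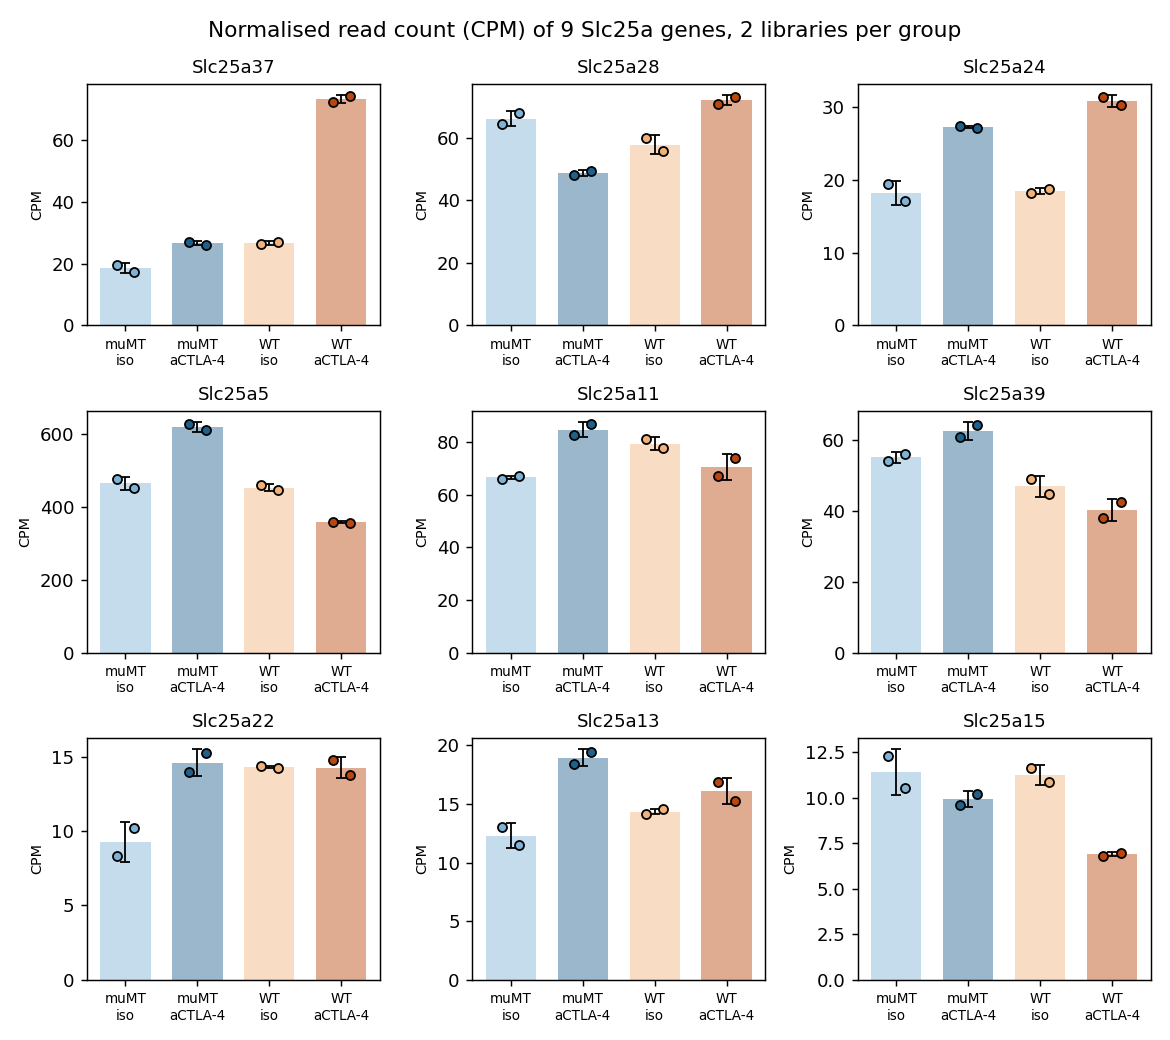
Scaled read counts (CPM) of 9 Slc25a genes in each of the 8 libraries (points), with group means (bars from 0) and SD of the 2 libraries (error bars). Slc25a37 reached 72.3 and 74.0 CPM in WT anti-CTLA-4 and at most 27.1 elsewhere, Slc25a28 and Slc25a5 went opposite ways in the hosts, and Slc25a24 was higher with anti-CTLA-4 in both.

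The nucleotide and phosphate carriers feed oxidative phosphorylation and balance adenine nucleotides across the membrane. Of 9 tested members 2 were higher and 2 lower in WT, and 3 higher and 2 lower in muMT. Of all genes 14.7% were higher and 15.9% lower in WT, and 22.1% and 20.4% in muMT. Slc25a5 (chrX:36795597-36798808) stood at 478 and 453 CPM in muMT isotype and 629 and 611 in muMT anti-CTLA-4. In WT it stood at 460.1 and 447 CPM under isotype and at 360.1 and 357 under anti-CTLA-4. The isotype libraries of the hosts overlapped, while anti-CTLA-4 placed muMT above and WT below them.

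Slc25a5 fell in WT to 0.791 of isotype (-0.34 ± 0.04, adjusted p 2.12e-07) and rose in muMT 1.33-fold (0.41 ± 0.04, adjusted p 2.79e-09). The difference was -0.75 ± 0.06 (adjusted p 2.74e-11), and under anti-CTLA-4 the gene was lower in WT than in muMT (-0.79 ± 0.04, adjusted p 1.19e-15). Under isotype the hosts did not differ beyond their spread (-0.04 ± 0.04, adjusted p 0.535). Slc25a5 has processed copies elsewhere in the genome, and only uniquely placed reads were counted. Reads placed at several sites were 8.25% to 9.26% of placed reads under isotype and 8.03% to 8.38% under anti-CTLA-4 in muMT, and 5.26% to 6.08% under isotype and 4.51% to 4.60% under anti-CTLA-4 in WT, and their part in its values was not tested.

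Its close relative Slc25a4 stood at 107 and 113 CPM under isotype and 116 and 113 under anti-CTLA-4 in muMT, and 98.5 and 95.3 under isotype and 87.4 and 81.5 under anti-CTLA-4 in WT. All WT libraries lay below all muMT libraries, and within muMT the groups overlapped. The log2 fold change was -0.20 ± 0.05 in WT (adjusted p 0.00503), 0.05 ± 0.05 in muMT (adjusted p 0.466) and -0.25 ± 0.08 for the difference (adjusted p 0.00936).

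The WT call of Slc25a4 was lost without WT anti-CTLA-4 replicate 2 (-0.15, adjusted p 0.144). That of the difference was lost without the same library (adjusted p 0.0881), without muMT anti-CTLA-4 replicate 1 (adjusted p 0.0606) or with upper-quartile scaling (adjusted p 0.0745). Between hosts it was lower in WT under isotype (-0.19 ± 0.05, adjusted p 0.00587, and 0.053 without WT isotype replicate 2) and under anti-CTLA-4 (-0.43 ± 0.05, adjusted p 4.57e-08). Per length, reads of Slc25a5 over Slc25a4 averaged 6.56 under isotype and 8.43 under anti-CTLA-4 in muMT, and 7.27 under isotype and 6.60 under anti-CTLA-4 in WT. Slc25a31 had 2 to 13 reads per library and no call.

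The phosphate carrier Slc25a3 stood at 372 and 374 CPM under isotype and 409 and 404 under anti-CTLA-4 in muMT, and 369 and 385 under isotype and 351 and 351 under anti-CTLA-4 in WT. Its range was narrow, with muMT anti-CTLA-4 highest and WT anti-CTLA-4 lowest. It rose in muMT by 0.12 ± 0.04 (adjusted p 0.0186), which was lost without either muMT anti-CTLA-4 library (adjusted p 0.121 without replicate 1 and 0.0677 without replicate 2) and with upper-quartile or total-read scaling. In WT the value was -0.11 ± 0.04 (adjusted p 0.061), the difference was -0.23 ± 0.06 (adjusted p 0.00303), and under anti-CTLA-4 it was lower in WT than in muMT (-0.21 ± 0.04, adjusted p 8.91e-05).

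Slc25a24, Slc25a25 and Slc25a23 are calcium-regulated carriers that exchange ATP-Mg for phosphate and so set the adenine nucleotide pool of the matrix. Slc25a24 (chr3:109123149-109168409) stood at 19.4 and 17.0 CPM under isotype and 27.3 and 27.1 under anti-CTLA-4 in muMT, and 18.1 and 18.7 under isotype and 31.4 and 30.2 under anti-CTLA-4 in WT. The isotype libraries of both hosts lay together and below all anti-CTLA-4 libraries. It rose 1.67-fold in WT (0.74 ± 0.08, adjusted p 1.28e-08) and 1.49-fold in muMT (0.58 ± 0.08, adjusted p 7.39e-07), and both calls held in every alternative run.

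The rises of Slc25a24 were not distinguishable between hosts, with a difference of 0.16 ± 0.12 (adjusted p 0.293). Slc25a25 passed in neither host, at 0.11 ± 0.05 in WT (adjusted p 0.153) and -0.08 ± 0.05 in muMT (adjusted p 0.27), and was lower in WT than in muMT under isotype (-0.28 ± 0.05, adjusted p 0.000114). Reads of Slc25a24 over Slc25a25 per length thus averaged 0.273 under isotype and 0.430 under anti-CTLA-4 in muMT, and 0.335 under isotype and 0.521 under anti-CTLA-4 in WT.

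Slc25a23 was sparse, with 0.816 and 1.79 CPM under isotype and 0.330 and 0.510 under anti-CTLA-4 in muMT, and 1.94 and 1.16 under isotype and 1.04 and 0.661 under anti-CTLA-4 in WT. The anti-CTLA-4 libraries lay below the isotype libraries of the same host, with 10 to 55 reads each. It fell in muMT (-1.62 ± 0.43, adjusted p 0.00278), a call lost without muMT isotype replicate 2 (-0.94, adjusted p 0.143) or muMT anti-CTLA-4 replicate 1 (-1.33, adjusted p 0.0534). In WT the value was -0.87 ± 0.38 (adjusted p 0.0858).

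The pyrimidine nucleotide carriers Slc25a33 and Slc25a36 supply the matrix for mitochondrial DNA and RNA synthesis. Slc25a33 stood at 28.0 and 27.3 CPM under isotype and 23.2 and 24.5 under anti-CTLA-4 in muMT, and 27.9 and 28.0 under isotype and 33.0 and 31.6 under anti-CTLA-4 in WT. The isotype libraries of both hosts lay together, with WT anti-CTLA-4 above them and muMT anti-CTLA-4 below, the same highest and lowest groups as for Slc25a28. The log2 fold change was 0.21 ± 0.07 in WT (adjusted p 0.0308), -0.21 ± 0.07 in muMT (adjusted p 0.0211) and 0.42 ± 0.10 for the difference (adjusted p 0.00186).

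Only the difference and the host comparison under anti-CTLA-4 (0.43 ± 0.07, adjusted p 9.99e-06) held in all alternatives run for Slc25a33. Its WT call was lost without any 1 of the 4 WT libraries (adjusted p 0.0737 to 0.198), and its muMT call without muMT isotype replicate 1 or either muMT anti-CTLA-4 library (adjusted p 0.0605 to 0.223). Slc25a36 passed under neither antibody effect, and was higher in WT than in muMT under isotype (0.25 ± 0.06, adjusted p 0.00215) and under anti-CTLA-4 (0.22 ± 0.06, adjusted p 0.00361). The first was lost without muMT isotype replicate 2 (adjusted p 0.0776) or replicate 2 of WT isotype (adjusted p 0.0557), and the second without muMT anti-CTLA-4 replicate 1 (adjusted p 0.0867).

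The genes of the machinery that these carriers serve went opposite ways in the hosts. Of 39 nuclear genes of oxidative phosphorylation 0 were higher and 28 lower in WT (median -0.23) and 34 higher and 0 lower in muMT (median 0.35), with 0 positive and 39 negative for the difference (median -0.54). Examples were the ATP synthase subunit Atp5f1b in WT (-0.33 ± 0.04, adjusted p 1.17e-07) and cytochrome c, Cycs, in muMT (0.78 ± 0.06, adjusted p 1.49e-12). Between hosts 7 were higher and 7 lower in WT under isotype (median -0.05, or 4 and 14 with upper-quartile scaling), and 0 and 39 under anti-CTLA-4 (median -0.60).

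Slc25a5 and Slc25a3 had the signs of that list in each comparison of antibodies. The 9 tested genes encoded in mitochondrial DNA gave 0 higher and 6 lower in WT (median -0.39) and 0 calls in muMT (median 0.10, or 0 and 1 with each other scaling), with 0 and 6 for the difference (median -0.49). Between hosts they gave 3 higher and 3 lower under isotype (median -0.25) and 0 and 6 under anti-CTLA-4 (median -0.39). In muMT 2 of the 9 had an unadjusted p under 0.05 by edgeR, and the Wald test of DESeq2 called 0. In WT CYTB, cytochrome b, fell by 0.56 (SE 0.07, adjusted p 4e-08).

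Carriers reach the inner membrane through the TOM complex, the small TIM chaperones and the TIM22 complex. Of 13 genes of this route 0 were higher and 2 lower in WT (median -0.13) and 9 higher and 0 lower in muMT (median 0.33), with 0 and 8 for the difference (median -0.45). Tomm40, the pore of the outer membrane, rose in muMT (0.58 ± 0.08, adjusted p 2.01e-07) and Timm8b, a small chaperone, fell in WT (-0.40 ± 0.09, adjusted p 0.000555). Between hosts 3 were higher and 1 lower under isotype (median -0.05), and 0 and 12 under anti-CTLA-4 (median -0.48).

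Regulators of mitochondrial biogenesis went both ways. Of 11 tested 1 was higher and 1 lower in WT (median 0.04) and 3 higher and 1 lower in muMT (median 0.07, or -0.01 with upper-quartile scaling). The coactivator Ppargc1b rose in WT (0.45 ± 0.11, adjusted p 0.00278) and in muMT (0.52 ± 0.12, adjusted p 0.001). The difference passed for 1 positive and 2 negative members (median -0.07), or 1 and 1 with upper-quartile (median 0.01) or total-read scaling (median -0.03). Between hosts it was 2 and 2 under isotype (median 0.05) and 3 and 5 under anti-CTLA-4 (median 0.06), the latter 4 and 2 with total-read scaling. Twnk, the mitochondrial DNA helicase, was lower in WT than in muMT under anti-CTLA-4 (-1.17 ± 0.11, adjusted p 2.12e-10).

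**Figure D4:**
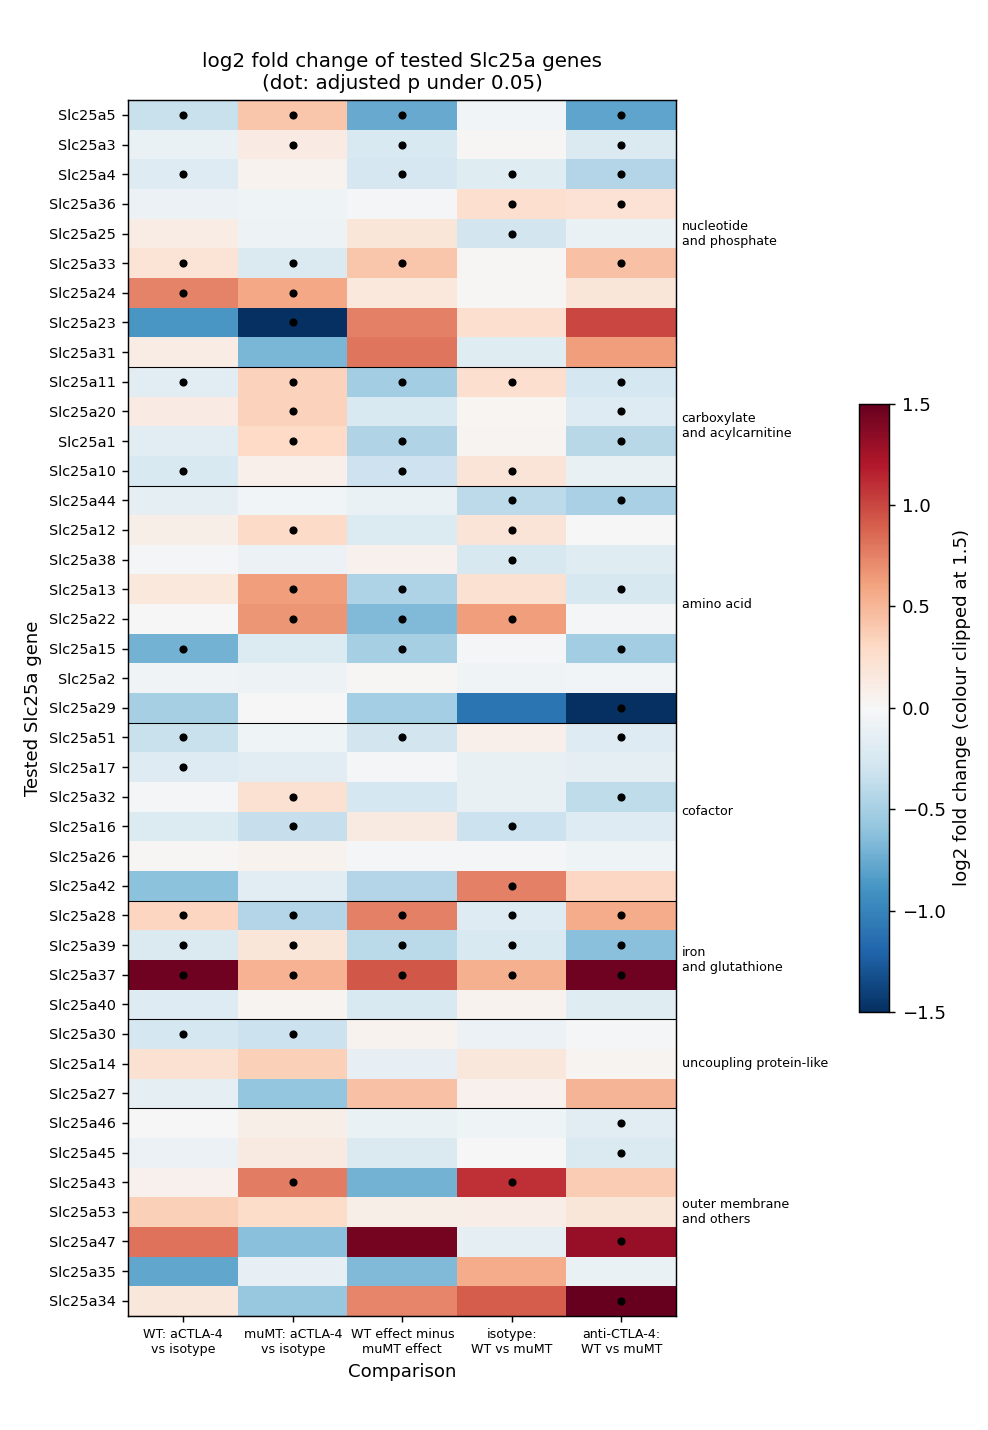
Log2 fold changes (colour, clipped at 1.5) of the tested Slc25a genes reported here in 5 comparisons, grouped by role, with a dot where the adjusted p was under 0.05. Slc25a37 is positive in all 5, and Slc25a5, Slc25a11 and Slc25a39 change sign between the WT and muMT columns, as do Slc25a28 and Slc25a33 the other way.

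The carboxylate and acylcarnitine carriers connect the citric acid cycle with the cytosol. Of 4 tested members 0 were higher and 2 lower in WT (median -0.16), and 3 were higher and 0 lower in muMT (median 0.32). The shares of all genes were 14.7% and 15.9% in WT, and 22.1% and 20.4% in muMT. Slc25a11, which exchanges oxoglutarate for malate in the malate-aspartate shuttle, stood at 66.2 and 67.0 CPM under isotype and 82.7 and 86.7 under anti-CTLA-4 in muMT, and 81.2 and 77.7 under isotype and 67.0 and 74.1 under anti-CTLA-4 in WT. The muMT anti-CTLA-4 libraries were highest, and WT anti-CTLA-4 lay below WT isotype, with 1 library at the level of muMT isotype.

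Slc25a11 rose in muMT (0.35 ± 0.06, adjusted p 1.12e-05) and fell in WT (-0.17 ± 0.06, adjusted p 0.0253), and the difference was -0.52 ± 0.08 (adjusted p 7.65e-06). The WT call was lost without WT anti-CTLA-4 replicate 1 (-0.10, adjusted p 0.389), WT isotype replicate 1 (-0.14, adjusted p 0.169) or either muMT anti-CTLA-4 library (adjusted p 0.0586 and 0.0593). It was higher in WT than in muMT under isotype (0.25 ± 0.06, adjusted p 0.000727) and lower under anti-CTLA-4 (-0.26 ± 0.06, adjusted p 0.000296). Its exons overlap those of Rnf167 on the opposite strand by 189 bases, and only reads of its own strand were counted.

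Slc25a20, which brings acylcarnitines in for fatty acid oxidation, rose in muMT (0.34 ± 0.07, adjusted p 8.06e-05), and the citrate carrier Slc25a1 rose there too (0.30 ± 0.08, adjusted p 0.00197). In WT they stood at 0.12 ± 0.07 (adjusted p 0.193) and -0.16 ± 0.08 (adjusted p 0.144). The difference passed for Slc25a1 (-0.45 ± 0.11, adjusted p 0.00147) and not for Slc25a20 (-0.23 ± 0.09, adjusted p 0.061). Under anti-CTLA-4 Slc25a1 was lower in WT than in muMT (-0.42 ± 0.08, adjusted p 3.77e-05), as was Slc25a20 (-0.20 ± 0.07, adjusted p 0.0125), the latter not without muMT anti-CTLA-4 replicate 1 (adjusted p 0.0875) or replicate 1 of WT anti-CTLA-4 (adjusted p 0.102).

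The dicarboxylate carrier Slc25a10 fell in WT (-0.23 ± 0.08, adjusted p 0.033), with a difference of -0.31 ± 0.11 (adjusted p 0.0357) and a higher level in WT than in muMT under isotype (0.20 ± 0.08, adjusted p 0.0491). These 3 calls were near the threshold. The first was lost without WT isotype replicate 1, WT anti-CTLA-4 replicate 2 or either muMT anti-CTLA-4 library (adjusted p 0.0607 to 0.308). The second was lost without any 1 of these 4 or muMT isotype replicate 2 (adjusted p 0.0508 to 0.169), and the third without any 1 library except replicate 2 of WT isotype (adjusted p 0.0573 to 0.357 where lost).

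In the citric acid cycle 0 of 21 genes were higher and 16 lower in WT (median -0.22), and 16 were higher and 1 lower in muMT (median 0.36), with 0 and 18 for the difference (median -0.51). The malate dehydrogenase Mdh2 fell in WT (-0.54 ± 0.06, adjusted p 1.2e-08) and rose in muMT (0.72 ± 0.06, adjusted p 8.17e-12). Between hosts 7 were higher and 4 lower under isotype (median 0.03, or 4 and 4 with a median of -0.01 with upper-quartile scaling), and 0 and 20 under anti-CTLA-4 (median -0.52). The 4 enzymes of the malate-aspartate shuttle, of which Mdh2 is 1, gave 0 and 3 in WT (median -0.23), 2 and 1 in muMT (median 0.08, or 1 and 1 with a median of 0.00 with upper-quartile scaling), 0 and 2 for the difference (median -0.25), 1 and 2 between hosts under isotype (median -0.13) and 0 and 4 under anti-CTLA-4 (median -0.38).

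Citrate that leaves the matrix feeds fatty acid synthesis. Of 11 genes of citrate export and fatty acid synthesis 0 were higher and 7 lower in WT (median -0.30) and 5 higher and 3 lower in muMT (median 0.16), with 1 and 7 for the difference (median -0.42). The muMT balance depended on the scaling, with 2 higher and 3 lower by upper-quartile (median 0.08) and 3 and 3 by total-read scaling (median 0.11). Fatty acid synthase, Fasn, fell in WT (-0.71 ± 0.06, adjusted p 2.74e-11), and Acly, which cleaves exported citrate, rose in muMT (0.32 ± 0.04, adjusted p 6.08e-07) while the desaturase Scd1 fell there (-1.11 ± 0.15, adjusted p 3.55e-07). Between hosts 2 were higher and 4 lower under isotype (median -0.12), and 1 and 7 under anti-CTLA-4 (median -0.54).

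Of 20 genes of the carnitine shuttle and beta oxidation, which Slc25a20 serves, 0 were higher and 9 lower in WT (median -0.18) and 11 higher and 3 lower in muMT (median 0.21), with 0 and 12 for the difference (median -0.33). Etfb, an electron carrier of the pathway, fell in WT (-0.36 ± 0.07, adjusted p 0.000231) and rose in muMT (0.60 ± 0.07, adjusted p 1.89e-08). Between hosts 3 were higher and 5 lower under isotype (median -0.07), and 1 and 14 under anti-CTLA-4 (median -0.37). Slc25a20 itself had the sign of this list in muMT and the opposite sign, without a call, in WT.

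**Figure D5:**
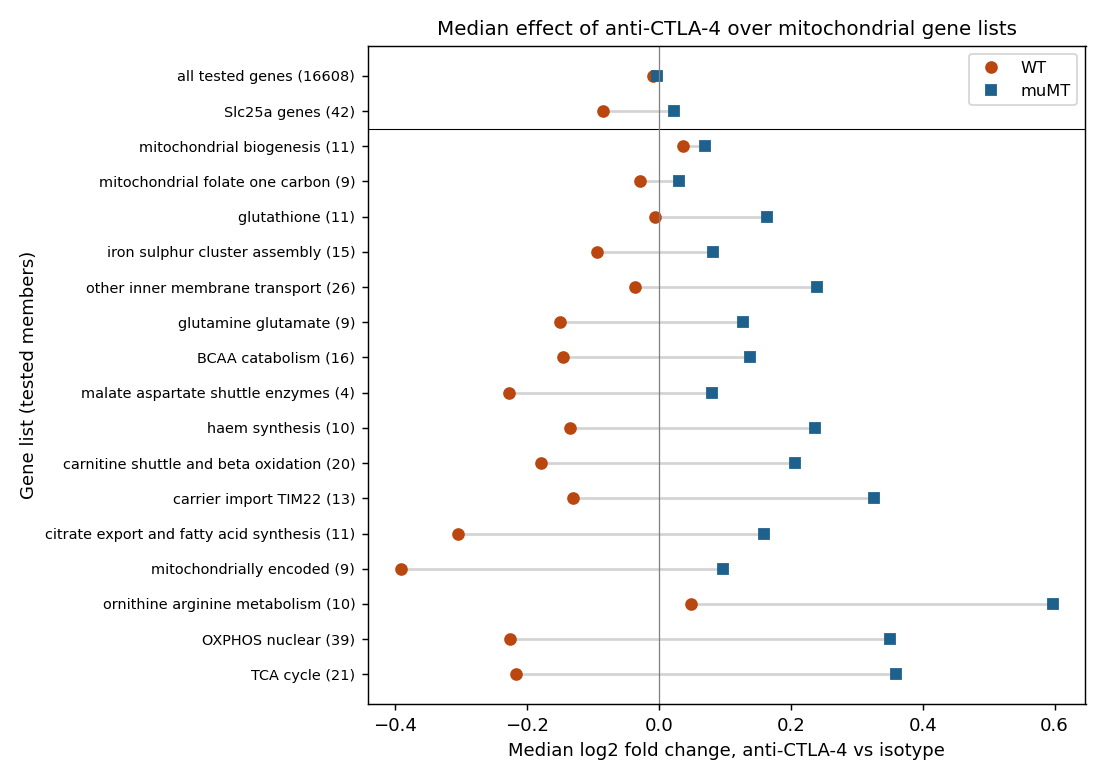
Median log2 fold change of anti-CTLA-4 against isotype in WT (circles) and muMT (squares) over all tested genes, the 42 Slc25a genes and 16 lists of mitochondrial genes (tested members in brackets). The Slc25a medians (-0.08 and 0.02) lie closer together than those of oxidative phosphorylation (-0.23 and 0.35) or the citric acid cycle (-0.22 and 0.36).

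Among the amino acid carriers 0 of 8 tested members were higher and 1 lower in WT, and 3 were higher and 0 lower in muMT. The shares of all genes were 14.7% and 15.9% in WT, and 22.1% and 20.4% in muMT. Slc25a22, which brings glutamate into the matrix, stood at 8.29 and 10.2 CPM under isotype and 14.0 and 15.2 under anti-CTLA-4 in muMT, and 14.4 and 14.2 under isotype and 14.8 and 13.7 under anti-CTLA-4 in WT. The muMT isotype libraries were low and the other 3 groups overlapped. It rose in muMT 1.58-fold (0.66 ± 0.11, adjusted p 1.03e-05) and not in WT (-0.00 ± 0.11, adjusted p 0.982), with a difference of -0.66 ± 0.15 (adjusted p 0.000796), and under isotype it was higher in WT (0.63 ± 0.11, adjusted p 2.7e-05).

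Slc25a13 and Slc25a12, known as citrin and aralar, export aspartate in exchange for glutamate. Slc25a13 stood at 13 and 11.5 CPM under isotype and 18.4 and 19.4 under anti-CTLA-4 in muMT, and 14.2 and 14.5 under isotype and 16.9 and 15.3 under anti-CTLA-4 in WT. The muMT anti-CTLA-4 libraries were highest, and the WT libraries lay between the muMT groups. It rose in muMT 1.54-fold (0.62 ± 0.10, adjusted p 3.46e-06), against 0.16 ± 0.10 in WT (adjusted p 0.224).

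The difference for Slc25a13 was -0.46 ± 0.14 (adjusted p 0.0082, and 0.0532 without WT anti-CTLA-4 replicate 2). Under anti-CTLA-4 it was lower in WT than in muMT (-0.24 ± 0.09, adjusted p 0.0331), which was lost without WT anti-CTLA-4 replicate 2 (adjusted p 0.245) or either muMT anti-CTLA-4 library (adjusted p 0.0596 and 0.175). Slc25a12 rose in muMT as well (0.29 ± 0.07, adjusted p 0.00133), against 0.09 ± 0.07 in WT (adjusted p 0.374), and the difference did not pass (-0.20 ± 0.10, adjusted p 0.123). Its higher level in WT under isotype (0.19 ± 0.07, adjusted p 0.035) was lost without muMT isotype replicate 1 (0.07, adjusted p 0.495), either WT isotype library (0.116 and 0.0904) or either muMT anti-CTLA-4 library (0.0574 and 0.0585).

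Slc25a15 brings ornithine into the matrix and passes citrulline out, as the urea cycle does in liver. It stood at 12.3 and 10.5 CPM under isotype and 9.60 and 10.2 under anti-CTLA-4 in muMT, and 11.6 and 10.9 under isotype and 6.81 and 6.98 under anti-CTLA-4 in WT. The WT anti-CTLA-4 libraries lay below all others. It fell in WT to 0.613 of isotype (-0.71 ± 0.12, adjusted p 2.72e-05), against -0.20 ± 0.11 in muMT (adjusted p 0.149), and was lower in WT than in muMT under anti-CTLA-4 (-0.52 ± 0.12, adjusted p 0.000601).

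The difference of the effects on Slc25a15 was -0.50 ± 0.17 (adjusted p 0.0169), and was lost without muMT isotype replicate 2 (-0.40, adjusted p 0.068), muMT anti-CTLA-4 replicate 2 (adjusted p 0.0731), WT isotype replicate 1 (adjusted p 0.0668) or replicate 1 of WT anti-CTLA-4 (adjusted p 0.0573). The other ornithine carrier, Slc25a2, had 1.36 to 2.01 CPM and no call. Of 10 tested genes of ornithine and arginine metabolism 4 were higher and 1 lower in WT (median 0.05) and 7 higher and 0 lower in muMT (median 0.60). Arg1, which makes ornithine from arginine, rose in muMT (1.84 ± 0.04, adjusted p 5.77e-25), and Nos2, which makes citrulline and nitric oxide from arginine, rose in WT (2.44 ± 0.05, adjusted p 3.37e-25) and in muMT (1.47 ± 0.06, adjusted p 5.14e-19). Slc25a15 fell in WT, where Nos2 rose, and had no call in muMT, where Arg1 and Nos2 rose. For the difference of effects Arg1 (-1.64 ± 0.06) and Aldh18a1 (-1.85 ± 0.10) were negative, as Slc25a15 was, and Nos2 was positive (0.97 ± 0.08). For the list the difference passed for 3 and 4 members (median -0.14, or 3 and 3 with upper-quartile or total-read scaling), and between hosts 5 were higher and 3 lower under isotype (median 0.14) and 2 and 6 under anti-CTLA-4 (median -0.33).

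Slc25a44, a carrier of branched-chain amino acids, differed between hosts and not with the antibody. It was lower in WT than in muMT under isotype (-0.39 ± 0.07, adjusted p 3.79e-05) and under anti-CTLA-4 (-0.49 ± 0.07, adjusted p 7.63e-07), with values of 45.8 to 47.7 CPM in the muMT libraries and 32.8 to 39.1 in the WT libraries, which did not overlap. Slc25a38, which brings glycine in for haem synthesis, was lower in WT under isotype (-0.24 ± 0.10, adjusted p 0.0458), a call lost without any 1 library except replicate 2 of muMT isotype or of WT isotype (adjusted p 0.0567 to 0.428 where lost).

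The genes that break down branched-chain amino acids gave 0 higher and 5 lower of 16 in WT (median -0.14) and 7 higher and 3 lower in muMT (median 0.14), with 2 and 8 for the difference (median -0.38). In muMT upper-quartile scaling gave 7 higher and 6 lower (median 0.06) and total-read scaling 7 and 5 (median 0.09). Hibadh, a dehydrogenase of valine breakdown, rose in muMT (0.62 ± 0.06, adjusted p 1.7e-09), and Bckdk, the kinase that restrains the pathway, fell in WT (-0.41 ± 0.08, adjusted p 0.000153). Between hosts 8 were higher and 2 lower in WT under isotype (median 0.19), and 2 and 6 under anti-CTLA-4 (median -0.08).

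Of 9 genes of glutamine and glutamate metabolism 2 were higher and 5 lower in WT (median -0.15) and 4 higher and 2 lower in muMT (median 0.13). The transaminase Gpt2 fell in WT (-0.55 ± 0.07, adjusted p 7.17e-08) and rose in muMT (0.41 ± 0.06, adjusted p 4.18e-06). The difference passed for 1 and 3 members (median -0.07, or 0.00 with upper-quartile scaling), and between hosts 1 was higher and 4 lower under isotype (median -0.17) and 1 and 6 under anti-CTLA-4 (median -0.28).

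Of 7 tested cofactor carriers 0 were higher and 2 lower in WT, and 1 was higher and 2 lower in muMT. Of all genes 14.7% were higher and 15.9% lower in WT, and 22.1% and 20.4% in muMT. The NAD carrier Slc25a51 stood at 82.9 and 87.5 CPM under isotype and 82.2 and 81.4 under anti-CTLA-4 in muMT, and 88.6 and 91.5 under isotype and 70.2 and 72.7 under anti-CTLA-4 in WT. The WT anti-CTLA-4 libraries lay below all others. It fell in WT (-0.33 ± 0.05, adjusted p 1.33e-05), with a difference of -0.27 ± 0.08 (adjusted p 0.00517) and a lower level in WT than in muMT under anti-CTLA-4 (-0.19 ± 0.05, adjusted p 0.00328, and 0.0567 without WT anti-CTLA-4 replicate 1).

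Slc25a32, a carrier of folate and FAD, rose in muMT (0.23 ± 0.08, adjusted p 0.0186), which was lost without muMT isotype replicate 2 (adjusted p 0.259) or muMT anti-CTLA-4 replicate 1 (adjusted p 0.227), and was lower in WT than in muMT under anti-CTLA-4 (-0.38 ± 0.08, adjusted p 0.000249). The coenzyme A related carrier Slc25a16 fell in muMT (-0.34 ± 0.09, adjusted p 0.00385, and 0.0517 without muMT anti-CTLA-4 replicate 1) and was lower in WT than in muMT under isotype (-0.33 ± 0.09, adjusted p 0.00664, and 0.17 without WT isotype replicate 1). The peroxisomal carrier Slc25a17 fell in WT (-0.19 ± 0.07, adjusted p 0.0447), a call lost without any 1 of the WT or muMT anti-CTLA-4 libraries (adjusted p 0.0554 to 0.34).

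The coenzyme A carrier Slc25a42 had 1.11 and 1.12 CPM under isotype and 1.12 and 0.851 under anti-CTLA-4 in muMT, and 1.98 and 1.79 under isotype and 1.48 and 0.992 under anti-CTLA-4 in WT. The WT isotype libraries were highest. It was 1.69-fold higher in WT than in muMT under isotype (0.76 ± 0.29, adjusted p 0.0395), a call lost without any 1 of these 4 libraries (adjusted p 0.092 to 0.171). Slc25a26, the S-adenosylmethionine carrier, passed in no comparison.

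Of 9 genes of mitochondrial folate metabolism, which Slc25a32 serves, 0 were higher and 2 lower in WT (median -0.03) and 3 higher and 1 lower in muMT (median 0.03, or -0.05 with upper-quartile and -0.02 with total-read scaling). Shmt2, which makes glycine and a folate-bound carbon from serine, fell in WT (-0.73 ± 0.08, adjusted p 1.07e-08) and rose in muMT (0.74 ± 0.07, adjusted p 7.6e-10). The difference passed for 1 and 4 members (median -0.16), and between hosts 1 was higher and 2 lower under isotype (median -0.09) and 0 and 5 under anti-CTLA-4 (median -0.30).

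Of the 3 members close to the uncoupling proteins, which let protons leak back into the matrix, Slc25a30 fell in both hosts (-0.26 ± 0.08, adjusted p 0.014 in WT, and -0.32 ± 0.08, adjusted p 0.00149 in muMT). The WT call was lost without replicate 1 of WT isotype (0.111) or of WT anti-CTLA-4 (0.13), as adjusted p. Slc25a14 and Slc25a27, at means of 3.61 and 1.40 CPM, had no call.

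Family relatives that are not named Slc25a were checked beside them. Ucp2, the uncoupling protein of immune cells, was higher in WT than in muMT under isotype (0.37 ± 0.05, adjusted p 3.94e-06) and under anti-CTLA-4 (0.16 ± 0.05, adjusted p 0.016), with no call for anti-CTLA-4 in WT (-0.13 ± 0.05, adjusted p 0.0735) or muMT (0.08 ± 0.05, adjusted p 0.251). Mtch1, an outer membrane relative, had the signs of Slc25a5, at -0.23 ± 0.06 in WT (adjusted p 0.00472) and 0.24 ± 0.06 in muMT (adjusted p 0.00179). Mtch2, an insertase of the outer membrane, rose in muMT (0.35 ± 0.06, adjusted p 1.08e-05) and stood at 0.00 ± 0.06 in WT (adjusted p 0.992).

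The pyruvate carrier is of another family and has the subunits Mpc1 and Mpc2. Mpc2 rose in muMT (0.31 ± 0.08, adjusted p 0.00216) and Mpc1 passed in no comparison. Of 26 genes of other inner membrane transport, Mpc1 and Mpc2 among them, 2 were higher and 7 lower in WT (median -0.04) and 13 higher and 2 lower in muMT (median 0.24), with 2 and 14 for the difference (median -0.25). The serine carrier Sfxn1 fell in WT (-0.42 ± 0.08, adjusted p 5.99e-05) and rose in muMT (0.83 ± 0.07, adjusted p 1.13e-10), and the sodium-calcium exchanger Slc8b1 did the reverse (0.33 ± 0.06, adjusted p 5.19e-05, and -0.51 ± 0.06, adjusted p 2.5e-08). Between hosts 7 were higher and 1 lower under isotype (median 0.07), and 3 and 11 under anti-CTLA-4 (median -0.09).

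The remaining members have outer membrane or less settled roles. Slc25a43 stood at 1.83 and 1.28 CPM under isotype and 3.07 and 2.25 under anti-CTLA-4 in muMT, and 3.57 and 3.09 under isotype and 3.04 and 3.89 under anti-CTLA-4 in WT. As for Slc25a22, the muMT isotype libraries were the low ones. It was 2.13-fold higher in WT than in muMT under isotype (1.09 ± 0.24, adjusted p 0.000406) and rose 1.70-fold in muMT (0.77 ± 0.24, adjusted p 0.0105), the latter lost without muMT isotype replicate 2 (0.55, adjusted p 0.109) or muMT anti-CTLA-4 replicate 1 (0.54, adjusted p 0.183).

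Comparing hosts directly, 15 members passed under isotype, 8 higher and 7 lower in WT, against 39.2% of all genes (19.9% higher and 19.2% lower). Under anti-CTLA-4 21 passed, 6 higher and 15 lower in WT, against 56.1% (27.4% higher and 28.7% lower). Without WT isotype replicate 2 the count under isotype was 9. Calls of at least 1.5-fold numbered 3 and 6, against 13% and 25.7%. The shares of members called in all, 35.7% and 50%, again lay near those of all genes. Under anti-CTLA-4 the 6 of 42 members higher in WT, and the 6 called at 1.5-fold, were smaller shares than those of all genes. The 15 of 42 lower in WT were a larger share. These comparisons use the same libraries as the antibody comparisons. Median log2 fold changes of the members were 0.02 under isotype, or -0.02 with upper-quartile scaling or without muMT isotype replicate 2, and -0.10 under anti-CTLA-4, against -0.01 over all genes in both.

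Of the calls between hosts under anti-CTLA-4, 3 rested on few reads. Slc25a47, a carrier known from liver, had 0.462 and 0.306 CPM in muMT anti-CTLA-4 and 1.12 and 0.808 in WT anti-CTLA-4, against 0.718 and 0.473 in muMT isotype and 0.460 and 0.631 in WT isotype. Slc25a34 had 0.264 and 0.136 CPM in muMT anti-CTLA-4 and 0.641 and 0.625 in WT anti-CTLA-4, against 0.359 and 0.237 in muMT isotype and 0.601 and 0.526 in WT isotype. The basic amino acid carrier Slc25a29 had 0.759 and 0.306 CPM in muMT anti-CTLA-4 and 0.200 and 0.147 in WT anti-CTLA-4, against 0.490 and 0.575 in muMT isotype and 0.353 and 0.140 in WT isotype. Under anti-CTLA-4 the WT libraries lay above the muMT libraries for Slc25a47 and Slc25a34 and below them for Slc25a29, at 4 to 28 reads per library.

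The log2 fold changes of WT against muMT under anti-CTLA-4 were 1.31 ± 0.46 (adjusted p 0.0167) for Slc25a47, 1.63 ± 0.56 (adjusted p 0.0147) for Slc25a34 and -1.61 ± 0.65 (adjusted p 0.0361) for Slc25a29. All were lost when single libraries were left out. For Slc25a47 these were muMT anti-CTLA-4 replicate 2 (adjusted p 0.121) and WT anti-CTLA-4 replicate 1 (0.141), for Slc25a34 muMT anti-CTLA-4 replicate 2 (0.142) and either WT anti-CTLA-4 library (0.0633 and 0.0602), and for Slc25a29 muMT anti-CTLA-4 replicate 1 (0.473) and either WT anti-CTLA-4 library (0.0932 and 0.181). Slc25a29 turned to 0.83 (adjusted p 0.0794) when both strands were counted. Slc25a29 and Slc25a47 lie on chromosome 12, 4.58 and 4.56 Mb from Ighm in GRCm38.p6, the gene inactivated in muMT mice, so linkage to that allele and the genotype itself cannot be told apart.

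Smaller calls under anti-CTLA-4 were those of Slc25a45 (-0.22 ± 0.07, adjusted p 0.0083, and 0.0542 without WT anti-CTLA-4 replicate 1) and of Slc25a46, an outer membrane protein that affects mitochondrial fusion and shape (-0.16 ± 0.06, adjusted p 0.0293). The latter was lost without WT anti-CTLA-4 replicate 1 (adjusted p 0.25) or either muMT anti-CTLA-4 library (adjusted p 0.107 and 0.104). Slc25a35 and Slc25a53 had no call. Nnt, the inner membrane transhydrogenase that is known to be partly deleted in some C57BL/6 substrains, stood at 20.1 and 20.8 CPM under isotype and 27.2 and 25.8 under anti-CTLA-4 in muMT, and 54.2 and 55.4 under isotype and 45.8 and 45.9 under anti-CTLA-4 in WT. It was 2.68-fold higher in WT than in muMT under isotype (adjusted p 2.58e-16). The hosts did not overlap, and the substrain of each host is not given in the sources used here, so a difference of host line and the lack of B cells cannot be told apart in these comparisons.

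Markers of other cells also differed between the groups. Fibroblast and mural markers (8 genes) summed to 368 to 373 CPM under isotype and 136 to 136 under anti-CTLA-4 in muMT, and 256 to 267 under isotype and 181 to 185 under anti-CTLA-4 in WT. Endothelial markers (8 genes) summed to 148 to 154, 246 to 252, 253 to 258 and 293 to 303 in the same order. The endothelial sum rose in muMT although 2 of its 8 genes were higher and 5 lower there (median log2 fold change -0.46). In WT 6 were higher and 1 lower (median 0.64). Microglia markers (8 genes) summed to 1796 to 1928, 1233 to 1258, 1691 to 1705 and 1426 to 1479 CPM. Over all libraries the markers of astrocytes summed to 33.8 to 43.3 CPM, of oligodendrocytes to 103 to 136, of neurons to 8.09 to 25.2, of T and NK cells to 40.4 to 57.3 and of B cells to 5.38 to 9.86. Microglia and fibroblast sums were highest in muMT isotype and lowest in muMT anti-CTLA-4. The part of these and the other marked cells in the effects on the carriers was not tested.

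The members that could not be tested were 5. Slc25a18, a glutamate carrier of astrocytes, had 37 reads in all 8 libraries, the oxodicarboxylate carrier Slc25a21 had 4 and Slc25a48 had 2, while Slc25a41 and Slc25a54, relatives of the ATP-Mg carriers, had 0. A count of 3 reads corresponds to 0.0980 to 0.120 CPM in these libraries, so lower levels were not detectable at this depth.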

How the data were processed

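RNA of sorted phagocytes was sequenced in 8 libraries, 2 in each of 4 groups. The deposited values are raw read counts per gene as the authors made them with STAR 2.7 after trimming with cutadapt 5.0 on mm39, per the submitters' processing notes, which also name DESeq2 1.42.1. The annotation is not given in the sources used here. Counts of the reverse strand were used, since they exceeded those of the forward strand 23.3 to 26.5 times, as a stranded kit named in the labels gives. Only uniquely placed reads are counted.

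All 16608 genes that passed edgeR's filter on low counts were fitted together by the edgeR 4.0.16 quasi-likelihood test in R 4.3.3, with TMM scaling, 4 residual degrees of freedom and Benjamini-Hochberg adjustment over all genes at 0.05. DESeq2 1.42.0, other scalings, no filter, the replicate number as a block and leaving out each library were alternatives. The script was tested on simulated data.

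The members, lists and tests were chosen with earlier results of these data known. Values are given in full for members with a 1.5-fold call or among the 6 highest per kb, and for lists by the genes of smallest p. Counts and medians cover all tested members, of which 1 is not reported here by name.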

Additional observations from a re-analysis of the deposited data

Results flagged for a closer look

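The effect of anti-CTLA-4 differed between WT and muMT hosts for 14 members by a test of the difference itself (WT minus muMT, log2 scale, edgeR). The differences were positive for Slc25a37 (0.93), Slc25a28 (0.76) and Slc25a33 (0.42). They were negative for Slc25a5 (-0.75), Slc25a22 (-0.66), Slc25a11 (-0.52), Slc25a15 (-0.50), Slc25a13 (-0.46), Slc25a1 (-0.45), Slc25a39 (-0.40), Slc25a10 (-0.31), Slc25a51 (-0.27), Slc25a4 (-0.25) and Slc25a3 (-0.23). Of all tested genes 37.3% passed the same test.

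On the strand that was not used for the results, 3 members had more than 3 reads and more than on their own strand, and Slc25a54 had 1 read there against 0. Slc25a18 had 2306 there against 37, with 369 under isotype and 409 under anti-CTLA-4 in muMT, and 565 under isotype and 963 under anti-CTLA-4 in WT, and the opposite-strand gene Atp6v1e1 overlaps its exons by 32 bases in GRCm38. Slc25a29 had 116 against 87, and Slc25a41 had 20 against 0.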

How the results depend on the processing

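Of 82 calls of single members 45 held in every alternative and 37 were lost in at least 1, and 1 turned its direction, that of Slc25a29 between hosts under anti-CTLA-4 (0.83 when both strands were counted, adjusted p 0.0794). The number of members called in WT was 13, and 7 with the Wald test of DESeq2. Leaving out 1 library at a time gave 8 to 15 in WT, 12 to 19 in muMT, 11 to 19 for the difference, 9 to 13 between hosts under isotype and 14 to 23 under anti-CTLA-4. The lowest value was that without WT anti-CTLA-4 replicate 1 in WT, without muMT anti-CTLA-4 replicate 1 in muMT and without WT isotype replicate 2 between hosts under isotype. The cause was not tested. Where a leave-one-out left a group with 1 library, that library was assumed to vary like the other groups. Upper-quartile or total-read scaling ended calls of Slc25a3, Slc25a4, Slc25a10, Slc25a12, Slc25a13, Slc25a20, Slc25a32, Slc25a38, Slc25a39 and Slc25a46. The Wald test of DESeq2, with all libraries, ended 20 of the 82 calls. Among them were calls of Slc25a10, Slc25a11, Slc25a12, Slc25a13, Slc25a15, Slc25a17, Slc25a29, Slc25a30, Slc25a32, Slc25a33, Slc25a38, Slc25a39, Slc25a42, Slc25a46 and Slc25a47.

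With the replicate number as a block 12 members were called in WT, 19 in muMT, 14 for the difference, 13 between hosts under isotype and 21 under anti-CTLA-4. Same-numbered libraries did not deviate together across genes (correlations from -0.042 to 0.017). Whether the numbers pair libraries cannot be decided this way, since a small shared effect would not be seen. With 2 libraries a group, and with few reads on Slc25a23, Slc25a29, Slc25a31, Slc25a34, Slc25a35, Slc25a42 and Slc25a47, small changes of these members were not detectable.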
